A study of Mus musculus with 12 samples.

Results

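Proteasome genes were followed across the 4 groups of this RNA sequencing experiment in mouse T cells. Members were all genes whose symbol in the deposited log2 table begins with Psm, then a letter from a to g, then a digit, and 48 of its 11921 genes met this rule. Of these, 5 are immunoproteasome genes (Psmb8, Psmb9, Psmb10, Psme1 and Psme2) and 42 are counted here as constitutive. The remaining one, Psmc3ip, encodes a factor of meiotic recombination and no proteasome part, so it fits the naming rule only. The cells were naive T cells sorted from the spleens of C57BL/6 mice aged 8 to 12 weeks, labelled CD4+. They were expanded with anti-CD3 and anti-CD28 antibodies for 2 days, rested for 1 day and then kept with DMSO or with CMA. CMA (10-carboxymethyl-9-acridanone) is a cell-permeable small molecule that activates mouse STING, an adaptor protein on the way from cytosolic DNA sensing to type I interferon. The mice were wild type (WT) or STINGgt/gt (Goldenticket, labelled STING KO), which carry a missense mutation in Tmem173, the gene of STING, in every cell of the animal. Each combination of genotype and treatment had 3 libraries, described as biological replicates, and the deposited design gives the treatment as 16 hours.

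The proteasome degrades ubiquitin-tagged proteins. Its 20S core is a barrel of alpha rings around beta rings, and the beta rings hold the catalytic subunits encoded by Psmb5, Psmb6 and Psmb7. A 19S particle caps the core: its base ATPases unfold the substrate, and its lid removes ubiquitin. Interferons are known to raise the immunosubunits Psmb8, Psmb9 and Psmb10, which take the places of Psmb5, Psmb6 and Psmb7 in newly built cores, and the activator subunits PA28 alpha and beta (Psme1 and Psme2). Cores built this way supply many of the peptides that MHC class I molecules present, and immune cells hold them also at rest.

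Psmb8 and Psmb9 lie next to the peptide transporter genes Tap1 and Tap2 in the MHC locus on chromosome 17, and Psmb9 and Tap1 are read in opposite directions from one short stretch of DNA. To show the regulatory sequence beside the values, the promoter windows of RefSeq (GRCm38.p6, 250 bases before to 50 after the annotated start) were taken for the 41 members that matched by symbol, among them the 5 immunoproteasome genes. They were searched on both strands for the core of the interferon-stimulated response element (GAAA, any 2 bases and GAAA again), bound by IRF factors, and for TTCNNNGAA, the gamma-activated site, which is its own reverse complement. The first was in the windows of 5 of 41 members (12.2%) and of 3.99% of all 27025 genes with a window. The second was in 3 of 41 (7.32%) and in 9.55% of all genes. The 30 bases around each of these matches follow, 5′ to 3′ on the gene's strand, with the match in capitals, so that a match on the opposite strand reads as its reverse complement.
Psme1, chr14:55578493-55578522, plus strand: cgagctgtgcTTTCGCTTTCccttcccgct
Psmb3, chr11:97703261-97703290, plus strand: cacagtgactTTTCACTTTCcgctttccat
Psmd4, chr3:95042675-95042704, minus strand: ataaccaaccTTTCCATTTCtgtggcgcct
Psmd9, chr5:123228021-123228050, plus strand: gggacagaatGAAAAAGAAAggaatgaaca
Psmg4, chr13:34162969-34162998, plus strand: gcgcgcatctGAAAGTGAAAgagcgttccg
Psmb8, chr17:34198088-34198117, plus strand: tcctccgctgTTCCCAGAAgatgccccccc
Psmd2, chr16:20651646-20651675, plus strand: gcgcgtggccTTCTGGGAAaaggggcggtg
Psmg1, chr16:95991181-95991210, minus strand: actcatgTTCTCTGAAtccgcttgcagtca
The first 5 lines hold the response element core and the last 3 the gamma-activated site. Only Psme1 and Psmb8 among them are immunoproteasome genes: the match of Psme1 starts at base 10 after the annotated start and that of Psmb8 97 bases before it. In the windows of Psmb9, Psmb10 and Psme2 neither of these letter patterns was found, which says only that these letters are not in those windows.

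A further pattern, TGACNNNGC, is the core of the antioxidant response element through which NFE2L1 is known to raise constitutive proteasome genes together. It was in 6 of 41 windows (14.6%), all of constitutive members, against 14% of all genes. Matches in Psmb5, Psmb6 and Psme4, which encode the constitutive partners of Psmb8 and Psmb9 and the PA200 activator, are shown in the same way because these genes recur below.
Psmb5, chr14:54618023-54618052, minus strand: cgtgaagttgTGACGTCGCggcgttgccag
Psmb6, chr11:70525338-70525367, plus strand: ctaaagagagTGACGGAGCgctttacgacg
Psme4, chr11:30771758-30771787, plus strand: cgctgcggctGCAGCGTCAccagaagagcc
CCAAT was in 14 of 41 windows and in 41.1% of all genes, and the NF-kB pattern (GGG, any 2 bases and TTTCC) was in 0 of 41 and in 1.89%. Longer upstream stretches are given for an immunosubunit gene that rose with CMA (Psmb10), a constitutive catalytic gene (Psmb6) and the activator and chaperone genes that fell most (Psme3 and Psmg1). Any of the 5 patterns is in capitals, and bases within annotated exons were left out.
Psmb10, chr8:105938445-105938642, minus strand: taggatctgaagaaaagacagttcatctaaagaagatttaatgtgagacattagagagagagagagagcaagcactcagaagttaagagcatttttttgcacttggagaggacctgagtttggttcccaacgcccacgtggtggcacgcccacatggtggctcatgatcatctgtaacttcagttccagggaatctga
Psmb6, chr11:70525107-70525356, plus strand: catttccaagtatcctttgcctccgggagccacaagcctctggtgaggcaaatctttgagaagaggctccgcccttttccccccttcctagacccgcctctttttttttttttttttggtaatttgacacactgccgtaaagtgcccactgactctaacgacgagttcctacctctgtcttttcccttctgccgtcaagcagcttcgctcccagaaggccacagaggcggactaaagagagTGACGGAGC
Psme3, chr11:101315963-101316212, plus strand: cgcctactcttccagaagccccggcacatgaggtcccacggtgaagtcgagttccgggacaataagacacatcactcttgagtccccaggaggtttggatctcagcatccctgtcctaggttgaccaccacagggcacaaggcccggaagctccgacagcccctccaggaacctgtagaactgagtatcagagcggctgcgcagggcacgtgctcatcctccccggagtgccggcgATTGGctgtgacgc
Psmg1, chr16:95990961-95991210, minus strand: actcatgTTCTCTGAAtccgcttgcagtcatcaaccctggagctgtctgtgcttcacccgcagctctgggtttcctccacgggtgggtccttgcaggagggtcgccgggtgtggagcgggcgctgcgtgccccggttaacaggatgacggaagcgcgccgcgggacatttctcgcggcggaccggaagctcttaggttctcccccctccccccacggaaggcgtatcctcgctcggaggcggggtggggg

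Between 27414450 and 43784910 reads per library fell on genes. All 48 members passed the filter on low counts, and the member with the fewest reads, Psme2b, had at least 61 in every library. Levels are given as CPM, the usual unit of reads on a gene relative to the library's total, here after TMM scaling between libraries. Tmem173 was at 183 to 190 CPM in WT with DMSO and at 168 to 181 CPM in STINGgt/gt with DMSO, and since the mutation is missense its level does not check the labels. The summed level of 7 T cell markers (Cd3d, Cd3e, Cd3g, Cd4, Cd5, Lck and Cd28) was 2866 to 2918 CPM in WT with DMSO, 2634 to 2641 CPM in WT with CMA and 2950 to 3054 CPM in STINGgt/gt, and with CMA in WT 4 of the 7 were lower and 1 higher by edgeR, in a comparison where 33% of all genes were higher and 37.4% lower. The markers of other cells had lower sums, which also differed between groups. Over 6 B cell markers they summed to 253 to 266 CPM in WT with DMSO, 350 to 378 in WT with CMA and 114 to 122 in STINGgt/gt. Over 6 CD8 T and natural killer cell markers they summed to 135 to 143, 67.6 to 74.6 and 34.9 to 40.7 CPM in the same order, and over 7 myeloid markers to 45.4 to 49.3, 57.5 to 61.7 and 33.6 to 38.0 CPM. With CMA in WT, 5 of the 6 B cell markers were higher and 5 of the 6 CD8 T and natural killer cell markers lower by edgeR. Of the 6 myeloid markers tested 3 were lower and 1 higher, Cst3, which makes up most of that sum. No marker was at 0 in all 12 libraries. The WT libraries also stood apart by treatment in the reads that fell on no gene, at 4.86% to 5.47% with DMSO and 6.79% to 7.16% with CMA, and in those without a unique alignment, at 29.6% to 30.3% and 27.8% to 27.9%. The part of these cells and of these read shares in the differences below was not tested, and in bulk RNA fewer cells of a type cannot be told apart from less RNA per cell.

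CMA was first compared with DMSO in WT cells, which asks how the levels of proteasome transcripts differ after the agonist. The paper reports that CMA drove T cells of WT mice into apoptosis overnight, and not those of STINGgt/gt mice. The libraries of WT with CMA may therefore come from dying or surviving cells. The part of cell death in the CMA effects in WT, and in their differences from STINGgt/gt, was not tested. All 5 immunoproteasome genes rose, most of the constitutive genes fell by less, and 8 members did not pass the test. By edgeR's quasi-likelihood test (adjusted p under 0.05), 8 members rose and 32 fell. Among all genes tested 33% rose and 37.4% fell, 70.4% together, so a call in this comparison was common, and the members' calls lean to lower more than those of all genes. The 3 CMA libraries did not overlap the 3 DMSO libraries for 43 members, against 71.1% of all genes. The median member moved by -0.25 on the log2 scale, and the median of all genes was -0.04.

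Psmb9, the immunosubunit that replaces Psmb6, was at 154, 168 and 139 CPM in WT with DMSO and at 327, 337 and 325 CPM in WT with CMA. Its groups lie far apart, and the difference was 1.10 on the log2 scale (SE 0.06, edgeR adjusted p = 5.31e-11), a 2.15-fold rise. Psmb10, which replaces Psmb7, was at 40.2, 42.9 and 36.6 CPM with DMSO and at 76.7, 80.2 and 76.9 CPM with CMA. It rose by 0.97 (SE 0.06, adjusted p = 4.73e-10). Psmb8, which replaces Psmb5 and was the most abundant of the 3 in CPM, went from 296, 317 and 294 CPM to 451, 446 and 445 CPM. Its rise of 0.56 (SE 0.04, adjusted p = 4.89e-09) was the smallest of the immunoproteasome genes. Psmb9 shares 212 bases of exon with Tap1 on the opposite strand, and Psmb8 shares 498 with the gene model Gm20496.

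The PA28 activator opens the gate of the core and is a ring of alpha and beta subunits. Psme1, the alpha subunit, was at 263, 286 and 273 CPM in WT with DMSO and at 429, 429 and 426 CPM in WT with CMA. Psme2, the beta subunit, went from 241, 250 and 249 CPM to 447, 432 and 438 CPM. In both genes every CMA library lay above every DMSO library, with rises of 0.65 for Psme1 (SE 0.04, adjusted p = 7.94e-10) and 0.83 for Psme2 (SE 0.05, adjusted p = 7.96e-11). Psme2b, a gene model of 1 exon on chromosome 11, rose by 2.03 (SE 0.13, edgeR adjusted p = 4.27e-10), from 2.88, 2.05 and 3.17 CPM to 11.0, 11.6 and 10.9 CPM. Its transcript and that of Psme2 are identical at 789 of 794 aligned bases (99.4%), so how the counting shared reads between these 2 genes is uncertain, and 41 bases also overlap the gene 9930111J21Rik1 on the same strand. For this reason counts of constitutive genes are given below without Psme2b, over 41 genes.

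**Figure D1:**
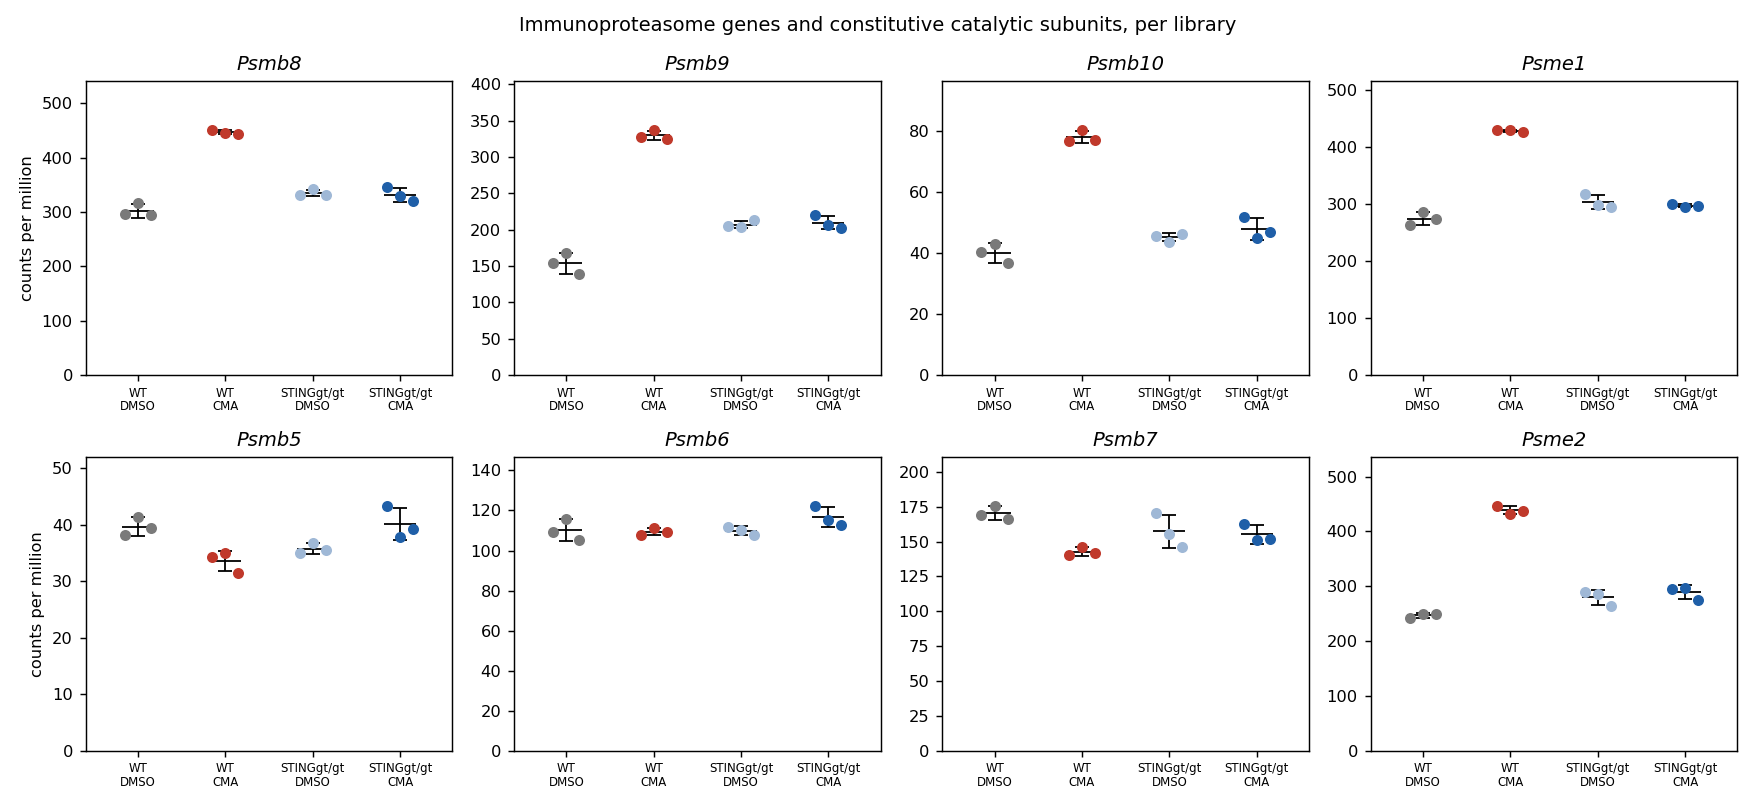
Level of the 5 immunoproteasome genes and the 3 constitutive catalytic subunits in CPM (linear axis from 0), 1 point per library, with the mean and 1 SD (n = 3) as black bars. In WT with CMA (red) the immunoproteasome genes lie above all other libraries, while Psmb5 and Psmb7 lie below those of WT with DMSO and Psmb6 overlaps them.

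Over the 41 constitutive genes, 32 fell, 2 rose and 7 did not pass the test, with a median of -0.32 (log2). Falls ran from 1.12-fold for Psmc4, a base ATPase, to 1.88-fold for Psmg1. None of the 32 reached a 2-fold change, and of all members only Psmb9 and Psme2b did.

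In the 20S core, 6 of 7 constitutive beta genes and 5 of 7 alpha genes fell. Psmb5, the subunit with chymotrypsin-like activity, was at 38.2, 41.4 and 39.4 CPM with DMSO and at 34.3, 35.0 and 31.5 CPM with CMA in WT, a difference of -0.24 (SE 0.06, edgeR adjusted p = 0.00172). Psmb7, with trypsin-like activity, went from 169, 176 and 166 CPM to 140, 146 and 142 CPM, or -0.26 (SE 0.05, adjusted p = 0.000405). Psmb6, with caspase-like activity, was at 109, 116 and 105 CPM and at 108, 111 and 109 CPM, a difference of -0.01 (SE 0.05, adjusted p = 0.887) whose sign changed with the tool and the filter. Among the noncatalytic subunits the falls of Psma3 (-0.53) and Psmb3 (-0.48) were the deepest of each ring. Psma6 was the one core gene that rose, from 146, 154 and 151 CPM to 165, 162 and 161 CPM (0.12, SE 0.04, adjusted p = 0.0229). That call was lost without WT DMSO replicate 1 or WT CMA replicate 1 or 2, when the adjusted p was 0.0561 to 0.0755, and under library-size scaling (0.0594).

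All 8 genes of the 19S lid fell, with a median of -0.47, the lowest of the larger classes. Psmd14, the lid's deubiquitinase, was at 151, 157 and 172 CPM with DMSO and at 107, 103 and 110 CPM with CMA (-0.58, SE 0.05, edgeR adjusted p = 6.53e-08). Psmd6 (-0.54), Psmd12 (-0.52) and Psmd3 (-0.51) were close to it, and Psmd11 fell least (-0.21, adjusted p = 0.000241). The base was less even. Of its 6 ATPase genes, Psmc1 (-0.41), Psmc6 (-0.35), Psmc2 (-0.18) and Psmc4 (-0.16) fell, while Psmc3 (0.06) and Psmc5 (-0.02) did not pass the test. Of the 3 other base genes, the scaffold genes Psmd1 (-0.42) and Psmd2 (-0.35) fell, and the ubiquitin receptor gene Psmd4 was at -0.11 (adjusted p = 0.0707).

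Assembly factors included the deepest falls. The 4 Psmg genes encode chaperones that build the alpha ring, and all of them fell, with a median of -0.45. Psmg1 was at 39.1, 42.1 and 39.0 CPM in WT with DMSO and at 22.2, 20.6 and 21.2 CPM in WT with CMA (-0.91, SE 0.05, edgeR adjusted p = 1.12e-10). Psmg4 followed at -0.56, Psmg2 at -0.35 and Psmg3, which was read least, at -0.32. Of the chaperones of the 19S base, Psmd5 fell from 66.5, 68.8 and 69.4 CPM to 46.0, 44.2 and 43.2 CPM (-0.62, adjusted p = 6.64e-09), Psmd10 (also known as gankyrin) fell by 0.20, and Psmd9 was at -0.03 (adjusted p = 0.661).

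Among the activators other than PA28 alpha and beta, and leaving aside the Psme2 copy Psme2b, which rose as given above, Psme3 fell and Psme4 did not pass the test. Psme3, which encodes the nuclear PA28 gamma, was at 240, 240 and 267 CPM in WT with DMSO and at 136 CPM in each WT library with CMA. The fall was 0.87 on the log2 scale (SE 0.05, edgeR adjusted p = 5.03e-11). Psme4, the PA200 activator, was at 148, 139 and 173 CPM and at 154, 154 and 164 CPM, groups that overlap (0.04, SE 0.06, adjusted p = 0.645). Psmf1, known as the inhibitor PI31, rose from 41.8, 42.8 and 39.6 CPM to 48.7, 48.4 and 49.95 CPM (0.25, SE 0.04, adjusted p = 0.000103). The 8 members that did not pass the test were Psmb6, Psma4, Psmc3, Psmc5, Psmd4, Psmd9, Psme4 and Psmc3ip.

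**Figure D2:**
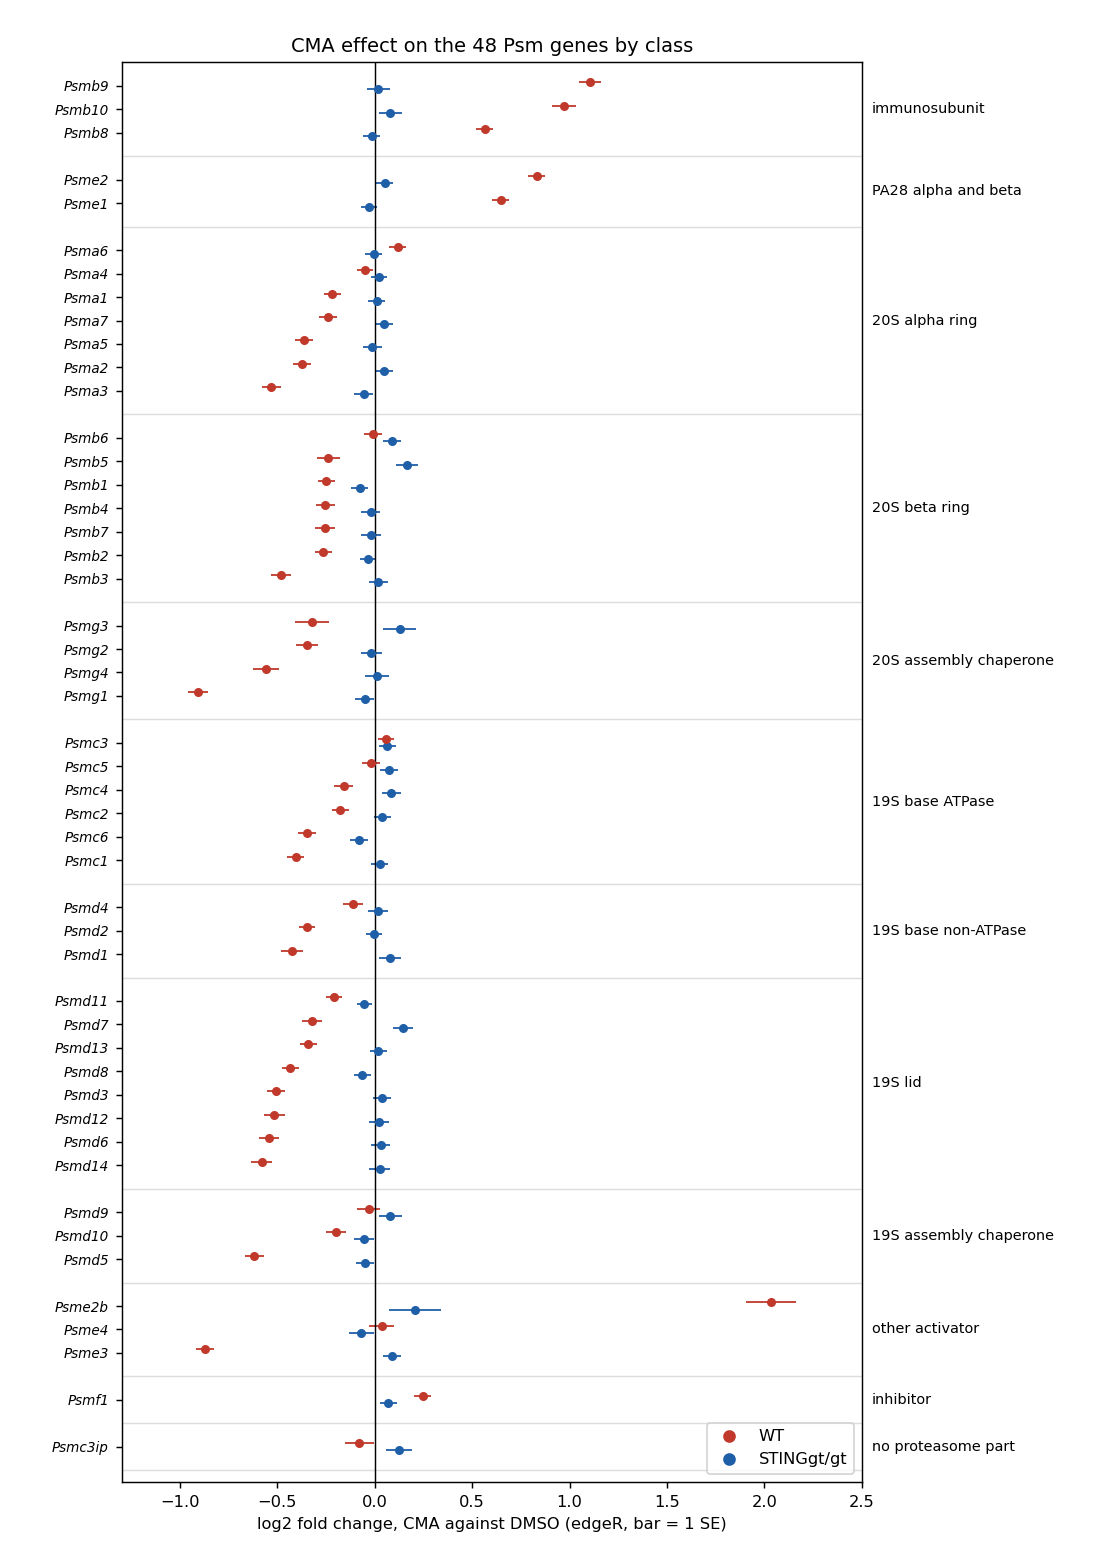
Log2 fold change of CMA against DMSO for each of the 48 Psm genes in WT (red) and STINGgt/gt (blue), grouped by class, with 1 SE as bars (edgeR, 3 libraries per group). Red points lie right of 0 for the immunoproteasome genes, Psme2b, Psmf1 and Psma6 (and, not past the test, Psmc3 and Psme4) and left of 0 for the others, and the blue points lie between -0.08 and 0.21.

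In STINGgt/gt cells the same comparison called no member: 0 rose and 0 fell by edgeR's quasi-likelihood test, where 1.32% of all genes were called (0.398% higher, 0.92% lower). The count was also 0 with DESeq2, with limma-voom and with limma on the deposited log2 table, and 2 members had an unadjusted edgeR p under 0.05. Fold changes ran from -0.08 for Psmc6 to 0.21 for Psme2b on the log2 scale, with SEs of 0.04 to 0.13 over both genotypes. Libraries of the treatments did not overlap for 8 members, against 23.1% of all genes. Psmb9 was at 204, 204 and 213 CPM with DMSO and at 220, 207 and 202 CPM with CMA in STINGgt/gt, which overlap. Psmb8 was at 331, 342 and 332 CPM and at 345, 329 and 320 CPM. Psme2 was at 289, 286 and 263 CPM and at 296, 297 and 276 CPM, and Psme3 at 288, 279 and 284 CPM and at 291, 304 and 309 CPM. The values with the smallest p were those of Psmb5, at 35.1, 36.8 and 35.5 CPM with DMSO and 43.4, 37.8 and 39.2 CPM with CMA (0.16, SE 0.06, adjusted p = 0.216), and of Psmd7, a lid gene (0.14, SE 0.05, adjusted p = 0.22).

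Whether the CMA effect differed between the genotypes was tested as an interaction. It passed the test for 38 of 48 members, 7 with a more positive effect in WT and 31 with a more negative one, against 58.8% of all genes (27.2% and 31.6%). All 5 immunoproteasome genes were among the 7, with differences of 1.09 for Psmb9, 0.89 for Psmb10, 0.78 for Psme2, 0.68 for Psme1 and 0.58 for Psmb8 (edgeR adjusted p from 1.06e-08 to 4.7e-07). The others were Psme2b (1.83) and Psmf1 (0.18, adjusted p = 0.0212). The call of Psmf1 was lost without WT CMA replicate 3 (adjusted p = 0.0519), under library-size scaling (0.0552) and with no filter (0.0684). Psme3 (-0.96) and Psmg1 (-0.86) had the most negative differences, followed by Psmd14 (-0.61) and Psmd6 (-0.57). Psmb5 differed by -0.40 (adjusted p = 0.000512) and Psmb7 by -0.23 (adjusted p = 0.0129). The call of Psmb7 was lost without STINGgt/gt DMSO replicate 3 (-0.18, adjusted p = 0.0519) or CMA replicate 1 (-0.19, adjusted p = 0.0509). For Psmb6 the difference of -0.09 (SE 0.07, adjusted p = 0.226) did not pass.

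Since an immunosubunit competes with its constitutive partner for the same place, the ratio of their transcripts was taken within each library, per kilobase of exon, which needs no scaling between libraries. The log2 ratio of Psmb9 to Psmb6 was -0.48, -0.43 and -0.57 in WT with DMSO and 0.64, 0.63 and 0.60 in WT with CMA. Psmb6 thus had the higher level per length before CMA and Psmb9 after it, with ratios of 0.712 and 1.54 from the means. For Psmb10 to Psmb7 the mean log2 ratio went from -1.09 ± 0.08 to 0.13 ± 0.01 (SD, n = 3), or from 0.469 to 1.10. Psmb8 was above Psmb5 in every library and went from 1.02 ± 0.03 to 1.82 ± 0.07, or from 2.03 to 3.54. In STINGgt/gt the means with DMSO and with CMA were -0.06 and -0.12 for Psmb9 to Psmb6, -0.79 and -0.70 for Psmb10 to Psmb7, and 1.32 and 1.14 for Psmb8 to Psmb5. Groups of 3 against 3 cannot give a two-sided exact permutation p below 0.1, and each of the 3 ratios reached 0.1 in WT, where its groups did not overlap. In STINGgt/gt the groups did not overlap either for Psmb8 to Psmb5 and for Psmb9 to Psmb6, with changes of -0.18 and -0.07, opposite in sign to WT.

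The absolute height of a ratio depends on the length given to each gene, and its change does not. With the longest annotated transcript in place of all exons, the mean log2 ratio in WT with DMSO was 1.84 for Psmb8 to Psmb5, -1.10 for Psmb9 to Psmb6 and -0.98 for Psmb10 to Psmb7. With CMA in WT the ratio of Psmb9 to Psmb6 was then 0.01 ± 0.02 (SD, n = 3), so which of them is higher after CMA depends on the length used. Over PA28, where alpha and beta form 1 ring type and gamma another, the log2 ratio of Psme2 to Psme3 went from 0.73 to 2.43 in WT and from 0.72 to 0.68 in STINGgt/gt, and that of Psme1 to Psme3 from 0.55 to 2.07 and from 0.51 to 0.39. For Psme1 to Psme3 the treatments did not overlap in WT or in STINGgt/gt, where the change was -0.12, opposite in sign to WT. For Psme2 to Psme3 they overlapped in STINGgt/gt.

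**Figure D3:**
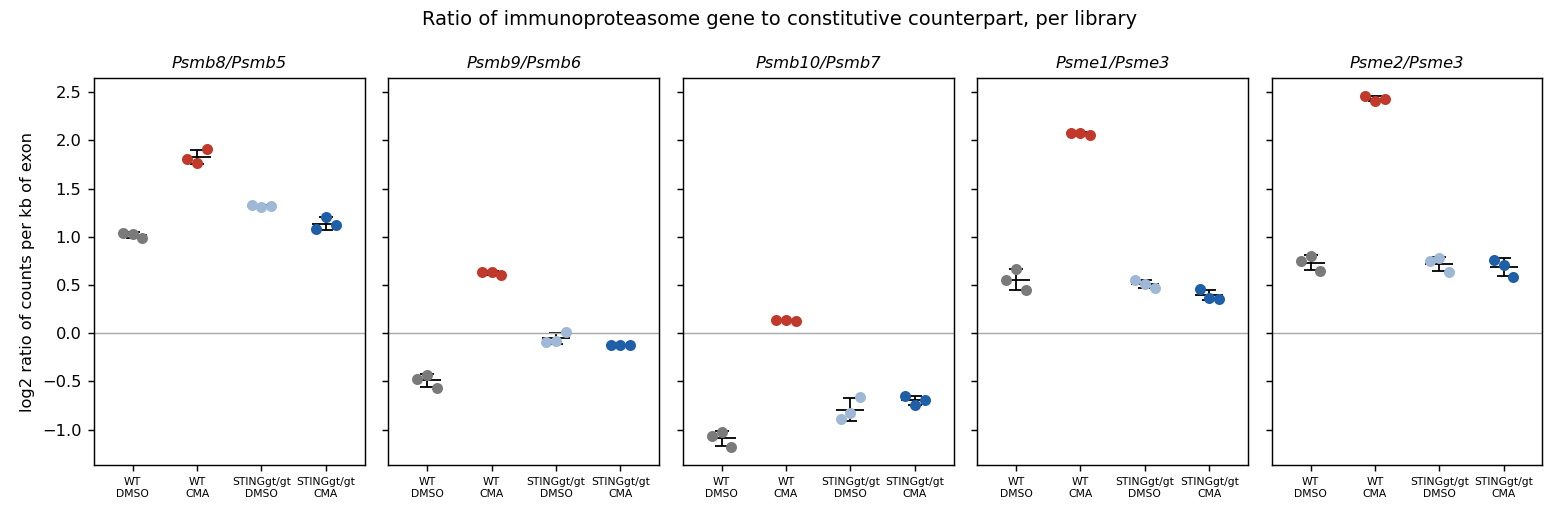
Log2 ratio of the counts per kilobase of exon of an immunosubunit gene to its constitutive partner, or of Psme1 or Psme2 to Psme3. Each point is 1 library, with the mean and 1 SD (n = 3) as black bars. In WT with CMA (red) all 5 ratios lie above the other 9 libraries, and those of Psmb9 to Psmb6 and Psmb10 to Psmb7 cross 0.

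By level per length, in counts per kilobase of exon scaled to the same total over all genes in each library, the order of the 48 members shifted in WT. Psme2 was first of the members in all 4 groups, also by the longest transcript. Psme1 was second in all 4 groups by this length, but at rank 8 in WT with DMSO and rank 3 in WT with CMA by the longest transcript. Psme2 was at 481 ± 9.5 in WT with DMSO and 861 ± 16 in WT with CMA (SD, n = 3). Psmb9 moved from rank 28 to rank 6, Psmb10 from 39 to 21 and Psmb8 from 6 to 3, while Psme3 moved from 9 to 20 and Psmg1 from 35 to 42. By the longest transcript the same moves were from 33 to 9, 40 to 23 and 5 to 2, and from 16 to 26 and 36 to 41. In STINGgt/gt Psmb9 was at rank 20 with both treatments. As a share of all reads on the 47 proteasome genes, the immunoproteasome genes held 15.3% ± 0.5 in WT with DMSO and 27.3% ± 0.1 in WT with CMA, and 17.7% ± 0.3 and 17.6% ± 0.3 in STINGgt/gt. The summed level of the 48 members moved less, from 6475 to 6765 CPM with DMSO to 6301 to 6332 CPM with CMA in WT.

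**Figure D4:**
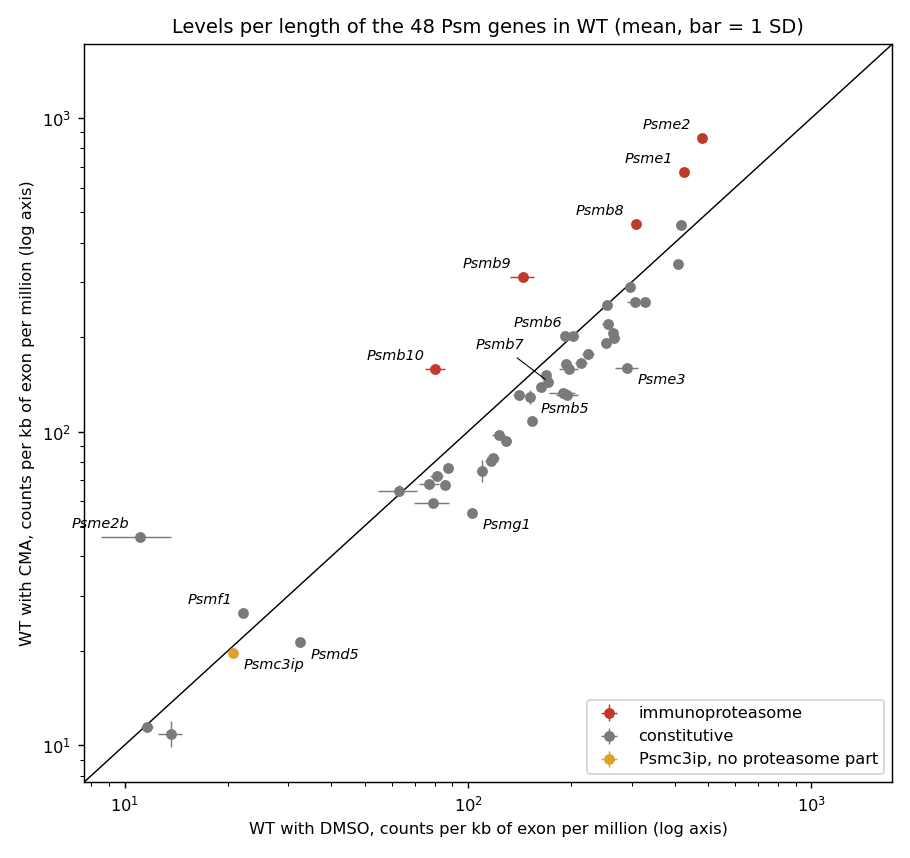
Level per length of the 48 Psm genes in WT with DMSO (horizontal) and WT with CMA (vertical), in scaled counts per kilobase of exon on log axes, mean and 1 SD of 3 libraries. Immunoproteasome genes (red) lie above the line of equal levels, with Psmb9 moving from 144 to 312, and most constitutive genes (grey) lie below it.

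The genotypes were then compared with DMSO alone, which asks whether they differed before the agonist. All 5 immunoproteasome genes were lower in WT than in STINGgt/gt, by small amounts, and constitutive genes went both ways. By edgeR, 10 members were higher and 12 lower in WT, and among all genes 22.9% and 19.8% were (42.7% together). Libraries did not overlap for 25 members, against 47.9% of all genes. A share of calls near that of all genes is not a result about the members. Psmb9 differed most, at 154, 168 and 139 CPM in WT and 204, 204 and 213 CPM in STINGgt/gt (-0.43, SE 0.06, edgeR adjusted p = 1.81e-05). The others were Psmb10 (-0.18, adjusted p = 0.0276), Psme2 (-0.18, adjusted p = 0.00451), Psmb8 (-0.15, adjusted p = 0.0105) and Psme1 (-0.14, adjusted p = 0.0111). Leaving out 1 library ended the call of Psmb10 (WT DMSO replicate 3, adjusted p = 0.0988; STINGgt/gt DMSO replicate 1, 0.0667; replicate 3, 0.0758) and of Psme1 (STINGgt/gt DMSO replicate 1, 0.0506), and both were also lost with the 2 groups fitted alone (0.0515 and 0.0532). These are the groups in which the summed B cell, myeloid, and CD8 T and natural killer cell markers given above also differ, and all 6 tested myeloid markers, 6 of 6 B cell markers and 5 of 6 of the last list were higher in WT by edgeR, against 22.9% of all genes.

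Constitutive genes with the highest values in WT over STINGgt/gt with DMSO were Psmd8 (lid, 0.28, edgeR adjusted p = 9.12e-05), Psme4 (0.22, adjusted p = 0.0118), Psmd9 (0.17, adjusted p = 0.0268) and Psmd13 (lid, 0.16, adjusted p = 0.0069). Among called genes, those with the lowest were Psmg4 (-0.28, adjusted p = 0.00203), Psmg1 (-0.22, adjusted p = 0.00178) and Psma4 (-0.19, adjusted p = 0.00163), beside Psmc3ip (-0.25, adjusted p = 0.00956). Psme2b was lower (-0.33) but did not pass the test. Psmb5 passed narrowly (0.15, adjusted p = 0.0495) and did not under 17 of 19 alternative settings, and Psmb7 (0.11, adjusted p = 0.0924) and Psmb6 (0.00, adjusted p = 0.99) did not. Psmb7 did pass without STINGgt/gt DMSO replicate 1 (0.17, edgeR adjusted p = 0.0163). The count of 10 higher members was 6 without WT DMSO replicate 2 and 5 and 3 without STINGgt/gt DMSO replicates 2 and 3. Without WT DMSO replicate 3 the difference of Psme4 dropped from 0.22 to 0.12 (edgeR adjusted p = 0.0569). Without STINGgt/gt DMSO replicate 1 it was 0.20 (adjusted p = 0.053). Psmd9 did not pass without WT DMSO replicate 2 (adjusted p = 0.12) or STINGgt/gt DMSO replicate 1 or 3 (0.0822 and 0.0983). It did not pass either under library-size scaling, DESeq2, no filter or the 2 groups fitted alone (0.0583 to 0.0713).

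**Figure D5:**
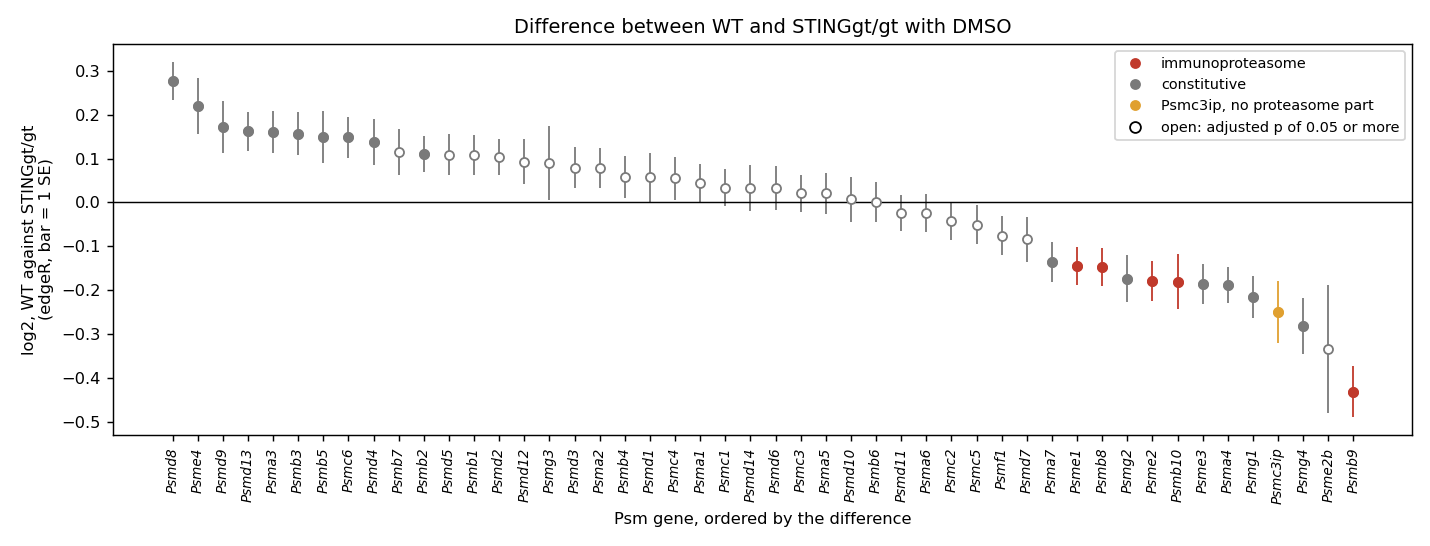
Log2 difference between WT and STINGgt/gt with DMSO for each Psm gene, ordered from the highest, with 1 SE as bars (edgeR, 3 libraries per group) and open points for an adjusted p of 0.05 or more. The 5 immunoproteasome genes (red) lie between -0.43 and -0.14, with Psmb9 lowest of all members. Constitutive genes such as Psmg4 (-0.28) and Psmg1 (-0.22) lie among them at the low end, and Psmd8 is highest at 0.28.

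With CMA, 9 members were higher and 32 lower in WT than in STINGgt/gt by edgeR, among 37% and 36.5% of all genes (73.5% together), and libraries did not overlap for 44 members, against 78.9%. This comparison shares its libraries with the CMA effects above and is given side by side with them. Psmb10 (0.71), Psmb9 (0.65), Psme2 (0.60), Psme1 (0.53) and Psmb8 (0.43) were higher in WT (adjusted p from 3.43e-09 to 1e-07), so the order of the genotypes in these 5 genes was the reverse of that with DMSO. Psme2b (2.82-fold), Psme4 (0.32), Psmf1 (0.10, adjusted p = 0.0436) and Psma6 (0.10, adjusted p = 0.0481) were also higher, and the last 2 did not pass under library-size scaling (adjusted p = 0.319 and 0.303). Leaving out any 1 of the WT CMA libraries ended both of these calls as well (adjusted p from 0.0763 to 0.137), as did leaving out replicate 2 of WT DMSO or STINGgt/gt DMSO or replicate 2 or 3 of STINGgt/gt CMA, and for Psma6 also its replicate 1 (0.0546 to 0.104). Psme3 (-1.15), Psmg1 (-1.07), Psmg4 (-0.85) and Psmd14 (-0.57) were lowest. Psme3 was at 136 CPM in each WT library and at 291, 304 and 309 CPM in STINGgt/gt. Psmb5 was lower (-0.25, adjusted p = 0.00088), and Psmb6 (-0.09, adjusted p = 0.0772) and Psmb7 (-0.12, adjusted p = 0.0505) did not pass. Psmb7 did pass under 10 of 19 alternative settings and Psmb6 under 3, library-size scaling (0.00808 and 0.0119) and the 2 groups fitted alone (0.00479 and 0.0204) among them for both.

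Genes of the same pathway without a Psm name were described beside them. Of 27 such genes, for further subunits, ubiquitin precursors, shuttle factors and regulators, 6 rose and 13 fell with CMA in WT, with a median of -0.19 against -0.04 for all genes. These are 70.4% of the list, the same share as of all genes, so the count is not a result about the list. Pomp, the maturation factor of new cores, fell from a mean of 158 to 109 CPM (-0.53, edgeR adjusted p = 2.2e-08), and Ngly1, which activates NFE2L1, fell by 0.58. In STINGgt/gt 1 of the 27 was called, Ngly1 (-0.22, adjusted p = 0.0429), where 1.32% of all genes were.

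Of 18 genes for interferons, their receptors and the factors known to act on immunoproteasome genes, 12 rose and 5 fell with CMA in WT (median 0.75 against -0.04 for all genes, of which 33% rose and 37.4% fell). Irf7 rose by 5.69, from a mean of 9.13 to 474 CPM, and Ifng, chosen after its value was seen as the lowest of the list, fell by 0.73. In STINGgt/gt 2 of the 18 rose, Irf1 (0.29) and Irf8 (0.21), and 1 fell, Ifngr2 (-0.27), where 1.32% of all genes were called. Of 7 genes of the class I peptide loading path, 6 rose in WT (median 0.87 against -0.04 for all genes, of which 33% rose) and 0 of 7 were called in STINGgt/gt by edgeR, where none had an adjusted p below 0.0702 (B2m). Tapbp, the loading chaperone tapasin, rose by 2.31, Tap2 by 1.36 and Tap1, the divergent neighbour of Psmb9, by 1.07 from 452 to 948 CPM. These values stand beside those of the immunoproteasome genes, and no link between them was tested.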

How the data were processed

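Total RNA was sequenced from 12 libraries after poly(A) selection with a stranded kit. The authors deposited gene counts per library and a table of log2 normalized values for 11921 genes. Their processing notes name cutadapt 1.3, STAR 2.4.0f1, HTSeq 0.6.1, RSEM 1.2.16 and GRCm38. The strand setting of the counting is not given in the sources used here. Reads without a unique alignment (27.8% to 30.3%), without a gene (4.86% to 7.16%) or ambiguous between genes (0.594% to 0.635%) stayed out.

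The deposited counts were fitted with edgeR 4.0.16 (TMM, filterByExpr, quasi-likelihood test, 1 model over the 4 groups). P-values were adjusted by Benjamini-Hochberg over the 13811 genes tested, with a threshold of 0.05. On simulated counts of 13560 genes, 200 genes were changed 2-fold, up or down in equal numbers. Of these, 200 of 200 were recovered, with 14 false calls. Few genes moved there, and by more than most members here. Recovery of smaller changes among many moving genes was therefore not tested. Alternatives were DESeq2 1.42.0, limma 3.58.1 on counts and on the log2 table, other filters and scalings, a replicate block and each library left out. Libraries are called biological replicates by the study, and no label names their animals or cultures. Deposited sample names share a first digit in 5 of 6 same-numbered pairs of DMSO and CMA libraries (not in STINGgt/gt replicate 2), and no source used here says what it marks, so p-values measure the spread between these libraries.

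Named in every comparison were the 5 immunoproteasome genes, Psmb5, Psmb6 and Psmb7, and up to 4 other members with the highest and 4 with the lowest called fold changes whose groups did not overlap and whose mean count was at least 50. Other members named within a class were chosen after their values were seen. Members and lists were chosen with earlier results of these data known. Some genes of the further lists that this rule would name are not reported here.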

Additional observations from a re-analysis of the deposited data

Results flagged for a closer look

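The CMA effect differed between WT and STINGgt/gt by the interaction test of edgeR for the 13 genes given here. On the log2 scale, WT minus STINGgt/gt, the difference was 1.83 for Psme2b, 1.09 for Psmb9, 0.89 for Psmb10, 0.78 for Psme2, 0.68 for Psme1, 0.58 for Psmb8 and 0.18 for Psmf1. It was -0.96 for Psme3, -0.86 for Psmg1, -0.61 for Psmd14, -0.57 for Psmd6, -0.40 for Psmb5 and -0.23 for Psmb7.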

How the results depend on the processing

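The number of members higher in WT than in STINGgt/gt with DMSO was 10 and fell to 6 with library-size scaling, with DESeq2 and with no filter on counts, to 4 with the 2 groups fitted alone, and lay between 3 and 10 when 1 library was left out. The cause was not tested. With the longest transcript as length, the mean log2 ratio in WT with DMSO was 1.84 for Psmb8 to Psmb5, -1.10 for Psmb9 to Psmb6 and -0.98 for Psmb10 to Psmb7. The uncalled CMA effect on Psmb6 in WT, -0.01, was 0.0232 with DESeq2, 0.0113 with no filter, 0.0358 both for genes with 10 or more counts throughout and with limma on the log2 table, 0.0246 with 2 groups alone, and -0.0316 to 0.0250 with 1 library left out. Its uncalled genotype difference with DMSO, 0.00, was -0.0235 with library-size scaling, -0.0167 with DESeq2, -0.000237 with limma-voom, -0.0134 with no filter, -0.0199 for genes with 10 or more counts throughout, -0.00574 with limma on the log2 table, -0.00196 with 2 groups alone, and -0.0444 to 0.0295 with 1 library left out. Uncalled CMA effects in STINGgt/gt crossed 0 with 1 library left out: Psmb8 -0.0492 to 0.00690, Psmb9 -0.0206 to 0.0436, Psme1 -0.0524 to 0.00224 and Psmb7 -0.0709 to 0.0384. Of 1334 alternative values for named genes, 1229 kept direction and call.

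Same-numbered libraries deviated together weakly, with correlations of 0.00, 0.10 and 0.13 in WT and of 0.06 in each pair in STINGgt/gt. Each DMSO library except WT replicate 1 still correlated best with the CMA library of its own number and genotype. Pairing by number is therefore not excluded. The main model took no pairs, and a replicate block was fitted as an alternative. With the replicate block 8 members rose and 33 fell in WT with CMA, 0 rose and 0 fell in STINGgt/gt, and the interaction called 7 and 31, and no named member changed its call. The genotype comparisons could not be fitted with the block. The fold changes of Psme2b and Psmg3 rest on the fewest reads, 61 and 265 in their shallowest libraries.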
